A study of Mus musculus with 4 samples.

Results

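The genes described here are 42 genes of DNA replication and S phase, all of them found among the 24421 gene columns of each count table. They were taken by name from a list of helicase, origin licensing, polymerase, clamp, single-strand binding, Okazaki fragment, chromatin and G1/S genes. Their transcripts were counted in 4 libraries of single mouse cells, sorted for CD138 and against B220 to take plasma cells. A lymph node library (VQ LN, replicate 1 of 1) and 2 bone marrow libraries (VQ BM replicates 1 and 2) held donor-derived VQ-D2 multiple myeloma cells, and 1 bone marrow library (WT BM) came from an age-matched wild-type control. All were on the C57/BL6 background. The labels give the VQ genotype as V{kappa}*MYC, Nras LSL Q61R/+ and IgG1-Cre, with the word recipient beside it, so the cells had passed into other animals. IgG1-Cre is active in B cells that switch to IgG1, and the Nras allele is silent until Cre removes its stop cassette. The labels do not say how many animals the VQ libraries came from. Each p-value below therefore reflects no more than the spread from library to library, and that spread may be technical.

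A cell copies its DNA once per division, in S phase. In G1, the origin recognition complex, Cdc6 and Cdt1 load the MCM helicase onto origins, and cyclin E and E2F1 then help start S phase. At the fork, Cdc45 and the GINS complex join the helicase, primase and DNA polymerases make the new strands, the PCNA clamp holds the polymerases in place, and RPA covers single-stranded DNA. Long-lived plasma cells of the bone marrow have left the cell cycle, whereas plasmablasts, dividing B cell precursors and myeloma cells can be in S phase.

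Many S phase genes carry binding motifs of E2F factors near their start sites, and the windows below show which letters were found. Each is 300 bases of RefSeq GRCm38.p6 from 250 bases before to 50 after an annotated start, printed 5′ to 3′ on the gene's strand, with matches to the words TTTGGCGC, TTTGCCGC, TTTCGCGC and TTTCCCGC or their reverse complements in capitals. Neighbouring matches can overlap, as in Mcm5 and Mcm6. Mcm3 (chr1:20820263-20820562, minus strand), Mcm5 (chr8:75109259-75109558, plus strand) and Mcm6 (chr1:128359656-128359955, minus strand) are shown as examples with more than 1 match. Mcm7, Dnmt1 and Rfc3 also have a window with more than 1 match. Cdc6 (chr11:98907901-98908200, plus strand) is shown as a loading factor, and Gins3 (chr8:95633309-95633608, plus strand) as a gene that holds a match but did not pass the expression test below. Orc1, Pola1 and Pole2 likewise hold a match and did not pass.
Mcm3: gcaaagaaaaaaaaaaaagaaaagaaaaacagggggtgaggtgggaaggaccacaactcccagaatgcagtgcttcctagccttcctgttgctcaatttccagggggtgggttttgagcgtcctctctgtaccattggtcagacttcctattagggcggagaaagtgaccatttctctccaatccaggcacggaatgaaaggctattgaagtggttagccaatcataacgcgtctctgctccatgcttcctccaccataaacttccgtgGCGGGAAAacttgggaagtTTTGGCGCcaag
Mcm5: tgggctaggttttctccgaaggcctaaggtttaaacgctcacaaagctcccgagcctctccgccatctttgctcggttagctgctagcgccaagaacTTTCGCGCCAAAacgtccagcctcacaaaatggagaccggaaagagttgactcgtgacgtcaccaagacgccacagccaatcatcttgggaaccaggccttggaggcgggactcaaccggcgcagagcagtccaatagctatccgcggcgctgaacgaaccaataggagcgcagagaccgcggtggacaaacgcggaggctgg
Mcm6: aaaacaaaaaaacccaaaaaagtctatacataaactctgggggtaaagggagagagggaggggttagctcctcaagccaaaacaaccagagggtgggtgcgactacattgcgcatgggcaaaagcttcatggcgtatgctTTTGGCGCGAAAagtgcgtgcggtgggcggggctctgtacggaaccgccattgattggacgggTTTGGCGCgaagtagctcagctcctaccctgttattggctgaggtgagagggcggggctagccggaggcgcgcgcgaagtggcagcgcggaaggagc
Cdc6: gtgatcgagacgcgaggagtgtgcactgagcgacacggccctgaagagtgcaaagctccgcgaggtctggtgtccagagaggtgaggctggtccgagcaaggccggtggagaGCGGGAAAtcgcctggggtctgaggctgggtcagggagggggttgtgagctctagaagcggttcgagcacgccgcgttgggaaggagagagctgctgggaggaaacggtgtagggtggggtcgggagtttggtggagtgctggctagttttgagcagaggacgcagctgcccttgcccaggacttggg
Gins3: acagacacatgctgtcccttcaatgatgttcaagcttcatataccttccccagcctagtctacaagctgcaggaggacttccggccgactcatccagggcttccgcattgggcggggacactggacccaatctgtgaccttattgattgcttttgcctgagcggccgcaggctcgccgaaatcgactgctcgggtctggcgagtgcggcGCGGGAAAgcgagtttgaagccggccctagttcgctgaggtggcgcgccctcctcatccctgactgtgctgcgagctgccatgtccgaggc

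Of the 42 genes, 33 had at least 1 window and 15 of these had a match. By window, 15 of 41 (36.6%) held a match, against 744 of all 32851 mouse windows (2.26%). The windows of these genes also had more G and C, with a median of 61.3% against 52.7% over all windows. A match describes letters only and was not tied to any level below. Gins1, Gins2, Gins4, Gmnn, Prim2, Rfc2, Pole, Mcm4 and Ccne2 had no window in the table used.

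Cells were split by the share of their UMIs (counted transcripts) that came from Jchain, the joining chain of secreted antibody. Wild-type cells with at least 5% served as wild-type plasma cells, and VQ cells under 5% as myeloma cells. The split left 185 of 185 VQ LN cells (803752 UMIs), 226 of 245 and 170 of 188 VQ BM cells (1045005 and 444437 UMIs) and 106 of 163 WT BM cells (204002 UMIs). Median UMIs per cell were 3978 in VQ LN, 4700 and 2646 in VQ BM and 1998.5 in WT BM cells with at least 5% Jchain. The 57 WT BM cells under 5% (136251 UMIs, median 2046) were kept as a separate class. Few cells lay near the limit, with 2 VQ BM cells and 2 WT BM cells between 4% and 5% and 3 of each between 5% and 6%. No cell barcode was shared between libraries. All 13 plasma cell markers were detected in the summed UMIs of every class. Their summed level was 18447 CPM (UMIs per 1000000 UMIs of the class) in VQ LN, 18975 and 20041 in VQ BM, 10415 in WT BM cells under 5% and 226885 in WT BM cells with at least 5%, where Jchain itself dominates. Single markers differed, with Mzb1 at 1355 CPM in VQ LN, 45.0 and 51.8 in VQ BM, 1578 in WT BM cells under 5% and 4760 in those with at least 5%. Xbp1 differed less, at 3558, 4196 and 4649, 1519, and 5515 in that order. B cell precursor genes Dntt, Rag1, Rag2, Vpreb1, Igll1 and Pax5 had 0 UMIs in the VQ cells under 5%.

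The 42 genes together were several-fold more abundant in VQ cells than in wild-type plasma cells. Their summed level was 3635 CPM in VQ LN (95% counting interval 3505 to 3770), 4126 (4004 to 4251) and 4160 (3973 to 4354) in VQ BM, and 583 (483 to 698) in WT BM cells with at least 5% Jchain. The VQ BM pair averaged 4143 ± 24.1 (SD, n = 2). All 3 VQ libraries were above the wild-type plasma cells, by 6.23-fold for VQ LN (5.19 to 7.55) and 7.09-fold for pooled VQ BM (5.91 to 8.57). These intervals cover counting error only. Because Jchain takes up many UMIs of the wild-type cells, the sum was also taken per 1000000 UMIs without Jchain, which gave 732 in WT BM. A summed level cannot tell a larger share of cells with these transcripts from more transcripts per cell, so shares of cells follow further on.

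**Figure D1:**
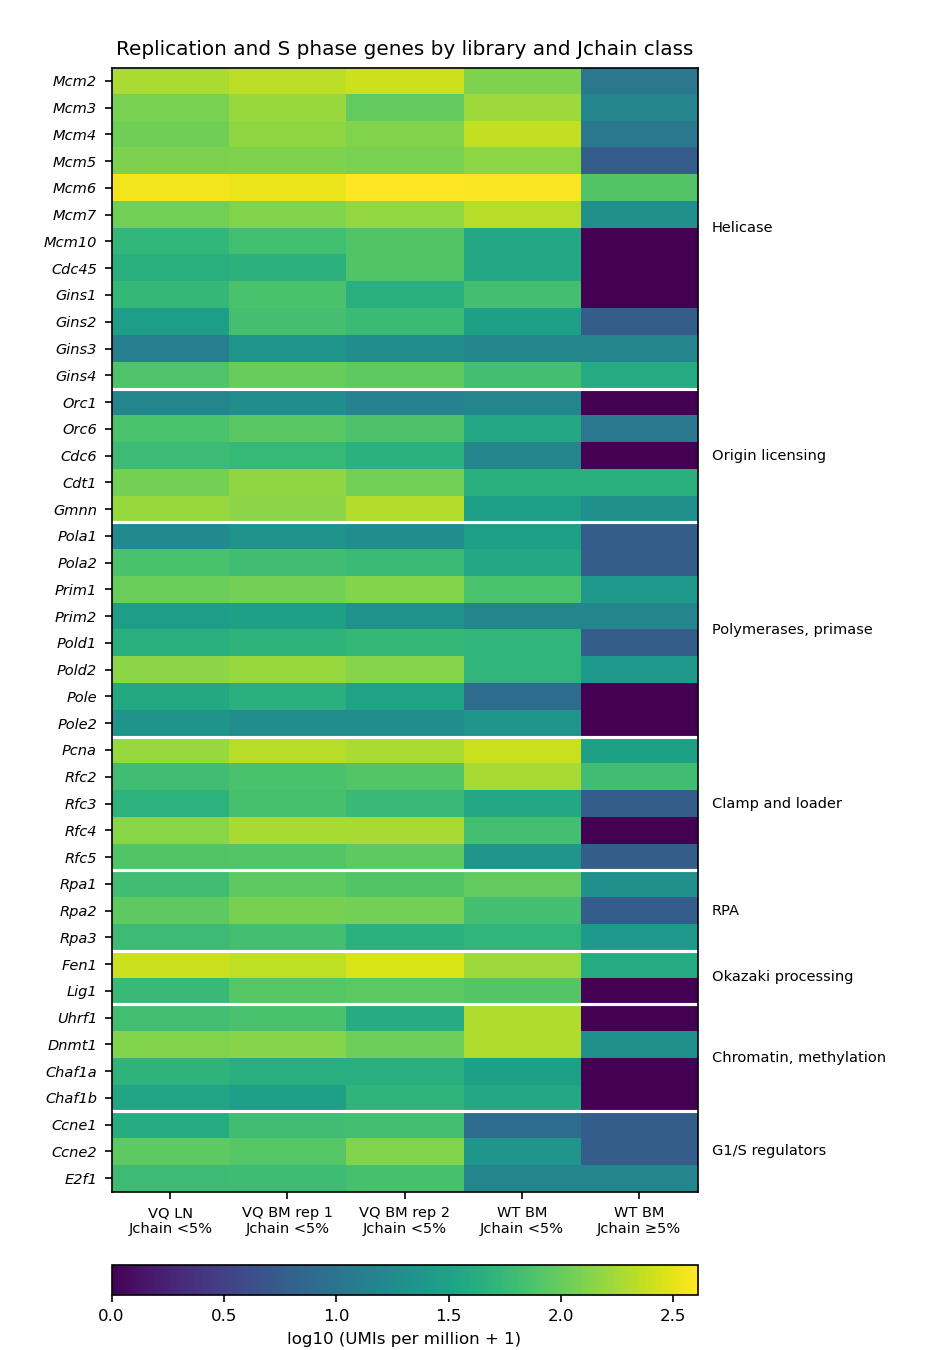
Level of each of the 42 genes (rows, grouped by role) in VQ LN, both VQ BM libraries (Jchain under 5%) and both Jchain classes of WT BM (columns), as log10 of CPM plus 1, with no error shown. The column of WT BM cells with at least 5% Jchain is the darkest, with 12 genes at 0 UMIs, while all 42 genes were detected in each of the other 4 columns shown.

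Replication genes were compared between VQ BM and wild-type plasma cells to ask how the myeloma cells differ from their normal counterparts. Of the 42 genes, 34 were higher in VQ BM and 0 were lower by edgeR's quasi-likelihood test on summed UMIs, with a Benjamini-Hochberg adjusted p under 0.05 over 8286 genes. Over all tested genes, 17.1% were higher and 12.8% were lower. At an unadjusted p under 0.05, edgeR gave 36 higher and 0 lower, and DESeq2 gave 26 higher and 0 lower. DESeq2 left 8 of the 42 higher after adjustment, against 2.91% of all 8286 tested genes. Both bases include genes to which DESeq2 gave no adjusted p, and 25 of the 42 had one. The median log2 fold change of the 42 genes was 3.27, or 2.04 with the genes at 0 UMIs in WT BM set to their lower bounds, against 0.20 over all tested genes. All 42 passed the filter on low counts, 29 of them only through their level in VQ cells. In wild-type plasma cells 12 genes had 0 UMIs, 17 had 1 to 3 and 13 had more, so most single folds have wide intervals. Both VQ BM libraries were above WT BM for 40 genes, against 50.6% of all tested genes. The 8 genes that did not pass were Gins3, Gins4, Orc1, Pola1, Prim2, Pole2, Rfc2 and Rpa3.

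**Figure D2:**
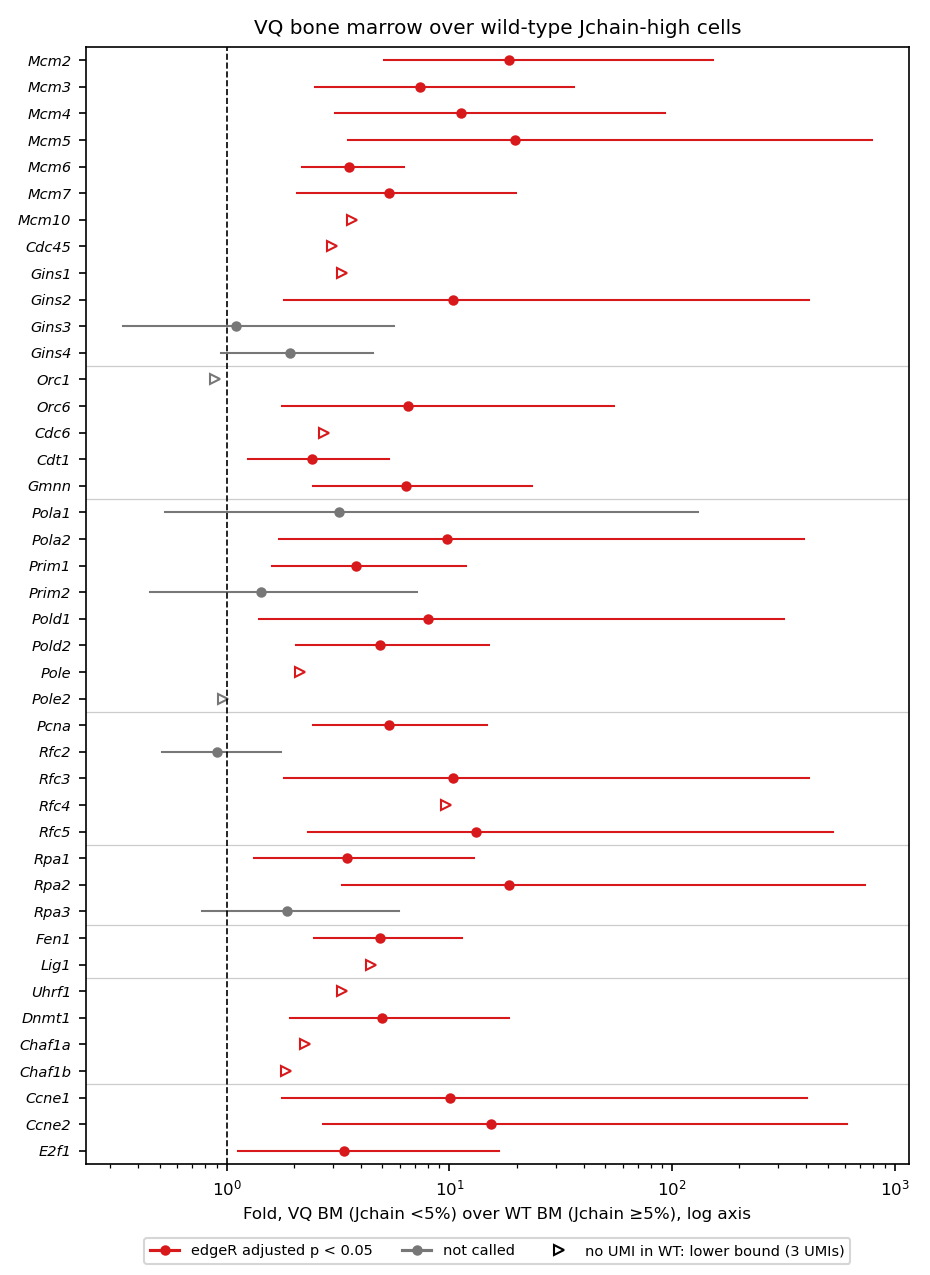
Fold of TMM-scaled UMIs in VQ BM cells (Jchain under 5%, both libraries pooled) over WT BM cells (Jchain at least 5%) for each gene on a log axis, with 95% counting intervals. Triangles are lower bounds for the 12 genes with 0 WT UMIs, set against a floor of 3 UMIs, and the 34 genes called by edgeR are red. Rfc2, Orc1 and Pole2 are the genes whose point or bound lies left of 1, and on plain CPM Rfc2 lies right of it, at 1.17.

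The helicase group held 10 genes that rose and 2 that did not pass. Mcm6, a subunit of the MCM ring that unwinds DNA, had 343 TMM-scaled CPM (CPM with totals scaled by edgeR's TMM factors) in VQ LN, 314 and 382 in VQ BM, and 94.1 in WT BM. It was the member with most UMIs in wild-type plasma cells, 16, and the groups still did not overlap. The log2 fold change in VQ BM was 1.87 (SE 0.32, edgeR adjusted p = 8.22e-08), a fold of 3.55 (2.17 to 6.26). Mcm2, another ring subunit, had 179 TMM-scaled CPM in VQ LN, 206 and 244 in VQ BM, and 11.8 in WT BM. Only 2 UMIs lay behind the wild-type value, and the log2 fold change was 4.21 (SE 0.57, edgeR adjusted p = 6.66e-12). Mcm3, also of the ring, had 115 TMM-scaled CPM in VQ LN, 147 and 89.0 in VQ BM, and 17.6 in WT BM, higher by 2.82 on the log2 scale (SE 0.58, edgeR adjusted p = 1.45e-05). The ring subunits Mcm4, Mcm5 and Mcm7 rose as well, with log2 fold changes of 3.45, 4.26 and 2.44. Mcm10, which helps activate the helicase, Cdc45, which rides with it, and Gins1 had 0 UMIs in wild-type plasma cells. Their folds were at least 3.65 for Mcm10, at least 2.98 for Cdc45 and at least 3.30 for Gins1. Of the other GINS subunits, Gins2 rose with a log2 fold change of 3.31 from 1 wild-type UMI, and Gins3 and Gins4 did not pass. Their fold intervals overlap that of Gins2, and differences between the subunits were not tested. Gins3 had 11.9 TMM-scaled CPM in VQ LN, 20.4 and 17.0 in VQ BM, and 17.6 in WT BM (log2 0.13, SE 0.94, edgeR adjusted p = 0.940), so the groups overlapped. Gins4 had 73.6 TMM-scaled CPM in VQ LN, 92.3 and 84.8 in VQ BM, and 47.0 in WT BM (log2 0.93, SE 0.48, edgeR adjusted p = 0.130), and it passed with library totals as scaling (log2 1.29, edgeR adjusted p = 0.0187).

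In origin licensing, 4 of 5 genes rose. Gmnn encodes geminin, which blocks Cdt1 and so prevents a second round of licensing. It had 152 TMM-scaled CPM in VQ LN, 132 and 191 in VQ BM, and 23.5 in WT BM (log2 2.71, SE 0.52, edgeR adjusted p = 4.30e-06). Cdt1, the loading factor that geminin binds, had 109 TMM-scaled CPM in VQ LN, 137 and 106 in VQ BM, and 52.9 in WT BM. Its rise by 1.24 on the log2 scale (SE 0.43, edgeR adjusted p = 0.0175) was the smallest among the 34 genes that rose. Orc6, a subunit of the origin recognition complex, had 70.0 TMM-scaled CPM in VQ LN, 79.9 and 70.0 in VQ BM, and 11.8 in WT BM (log2 2.68, SE 0.73, edgeR adjusted p = 0.00155). Cdc6 had 0 UMIs in wild-type plasma cells and was at least 2.73-fold higher in VQ BM. Orc1, the largest origin recognition subunit, also had 0 there, but its 19 and 6 UMIs in VQ BM did not pass (edgeR adjusted p = 0.123), and its bound was 0.887.

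Among polymerase and primase genes, 5 of 8 rose. Pold2, the accessory subunit of polymerase delta, had 136 TMM-scaled CPM in VQ LN, 149 and 127 in VQ BM, and 29.4 in WT BM (log2 2.25, SE 0.50, edgeR adjusted p = 6.81e-05). Prim1, the catalytic primase subunit, had 96.1 TMM-scaled CPM in VQ LN, 106 and 125 in VQ BM, and 29.4 in WT BM (log2 1.93, SE 0.52, edgeR adjusted p = 0.00161). Pola2, an accessory subunit of polymerase alpha, had 68.8 TMM-scaled CPM in VQ LN, 58.6 and 55.1 in VQ BM, and 5.88 in WT BM, where 1 UMI was counted (log2 3.25, SE 0.93, edgeR adjusted p = 0.00293). Pold1, the catalytic subunit of polymerase delta, rose with a log2 fold change of 2.97 from 1 wild-type UMI, and Pole, that of polymerase epsilon, was at least 2.13-fold higher. The call of Pold1 was lost without cells holding markers of other types (log2 2.49, edgeR adjusted p = 0.0656), with all cells (log2 0.93, adjusted p = 0.158) and with a preset coefficient of variation (adjusted p = 0.176). The genes that did not pass all had few UMIs. Pola1, the catalytic subunit of polymerase alpha, had 13 UMIs in VQ LN, 22 and 8 in VQ BM and 1 in WT BM (edgeR adjusted p = 0.356). Prim2, the large primase subunit, had 22 UMIs in VQ LN, 31 and 9 in VQ BM and 3 in WT BM (edgeR adjusted p = 0.702). Pole2, an accessory subunit of polymerase epsilon, had 17 UMIs in VQ LN, 19 and 8 in VQ BM and 0 in WT BM (edgeR adjusted p = 0.0909).

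Of the clamp and its loader, replication factor C, 4 of 5 genes rose and Rfc2 did not. Pcna, the clamp, had 151 TMM-scaled CPM in VQ LN, 195 and 176 in VQ BM, and 35.3 in WT BM (log2 2.40, SE 0.45, edgeR adjusted p = 1.65e-06). Rfc4 had 133 TMM-scaled CPM in VQ LN, 170 and 174 in VQ BM, and 0 UMIs in WT BM. With a floor of 3 UMIs this is at least 9.68-fold higher (edgeR adjusted p = 4.38e-12), the highest bound among the 12 genes at 0. The last 500 bases of Rfc4 overlap Eif4a2 on the opposite strand. No source used here states that counting used strand, so reads of such a pair cannot be told apart. Eif4a2 fell in VQ BM (log2 -1.34, edgeR adjusted p = 0.000746), and its part in the Rfc4 counts was not tested. Rfc5 had 74.8 TMM-scaled CPM in VQ LN, 74.6 and 84.8 in VQ BM, and 5.88 in WT BM (log2 3.69, SE 0.86, edgeR adjusted p = 0.000195), and Rfc3 had a log2 fold change of 3.31. Both of these rest on 1 wild-type UMI. Rfc2 had 60.5 TMM-scaled CPM in VQ LN, 66.6 and 76.3 in VQ BM, and 76.4 in WT BM. All 3 VQ libraries lay just under the wild-type value, from 13 UMIs, and the log2 fold change was -0.13 (SE 0.44, edgeR adjusted p = 0.861). With library totals as scaling the direction turned, to 0.24 (edgeR adjusted p = 0.704). The fold interval of Rfc2, 0.510 to 1.76, lies below that of Pcna, 2.44 to 14.8, though the difference between the genes was not tested.

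Single-strand binding and Okazaki fragment genes mostly rose. Rpa2, the middle RPA subunit, had 85.5 TMM-scaled CPM in VQ LN, 109 and 108 in VQ BM, and 5.88 in WT BM, where 1 UMI was counted (log2 4.17, SE 0.78, edgeR adjusted p = 2.37e-06). Rpa1, the large subunit, had 60.5 TMM-scaled CPM in VQ LN, 84.3 and 74.2 in VQ BM, and 23.5 in WT BM (log2 1.77, SE 0.60, edgeR adjusted p = 0.0139). Rpa3, the small subunit, had 58.2 TMM-scaled CPM in VQ LN, 60.4 and 42.4 in VQ BM, and 29.4 in WT BM. It did not pass (log2 0.87, SE 0.61, edgeR adjusted p = 0.282), and its fold interval ran from 0.773 to 5.91. Fen1, the nuclease that trims the ends of Okazaki fragments, had 239 TMM-scaled CPM in VQ LN, 213 and 271 in VQ BM, and 47.0 in WT BM (log2 2.33, SE 0.40, edgeR adjusted p = 1.36e-07). Lig1, the ligase that joins the fragments, had 54.6 TMM-scaled CPM in VQ LN, 76.3 and 82.7 in VQ BM, and 0 UMIs in WT BM, at least 4.43-fold higher (edgeR adjusted p = 6.95e-06).

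All 4 genes of chromatin assembly and maintenance methylation rose. Dnmt1, which copies DNA methylation onto new strands, had 122 TMM-scaled CPM in VQ LN, 124 and 102 in VQ BM, and 23.5 in WT BM (log2 2.29, SE 0.54, edgeR adjusted p = 0.000234). Uhrf1, which guides Dnmt1 to newly copied DNA, had 61.7 TMM-scaled CPM in VQ LN, 66.6 and 38.1 in VQ BM, and 0 UMIs in WT BM, at least 3.30-fold higher (edgeR adjusted p = 0.000153). Taking all cells of each library with no Jchain split turned its direction, to a log2 fold change of -0.59 (edgeR adjusted p = 0.269), since the WT BM cells under 5% Jchain then entered. Chaf1a and Chaf1b encode subunits of chromatin assembly factor 1, which places histones on new DNA. Chaf1a had 46.3 TMM-scaled CPM in VQ LN, 39.1 and 40.3 in VQ BM, and 0 UMIs in WT BM, at least 2.23-fold higher (edgeR adjusted p = 0.00232), and Chaf1b was at least 1.84-fold higher. The end of Chaf1a overlaps Ubxn6 on the opposite strand, a gene that fell (log2 -1.74, edgeR adjusted p = 0.000168).

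All 3 regulators of the G1/S step rose. Ccne2, a cyclin E that activates Cdk2, had 86.6 TMM-scaled CPM in VQ LN, 76.3 and 123 in VQ BM, and 5.88 in WT BM (log2 3.94, SE 0.82, edgeR adjusted p = 3.49e-05). Ccne1, the other cyclin E gene, had 38.0 TMM-scaled CPM in VQ LN, 58.6 and 61.5 in VQ BM, and 5.88 in WT BM (log2 3.30, SE 0.92, edgeR adjusted p = 0.00228). E2f1, an activator of S phase genes, had 57.0 TMM-scaled CPM in VQ LN, 56.8 and 65.7 in VQ BM, and 17.6 in WT BM (log2 1.75, SE 0.69, edgeR adjusted p = 0.0395). The wild-type values rest on 1 UMI each for Ccne2 and Ccne1 and on 3 UMIs for E2f1. Fold intervals ran from 2.71 to 609 for Ccne2, 1.77 to 403 for Ccne1 and 1.12 to 16.6 for E2f1. The call of E2f1 was lost without cells holding markers of other types (log2 1.86, edgeR adjusted p = 0.0850), at a Jchain limit of 10% (log2 1.56, adjusted p = 0.0964), with a preset coefficient of variation (adjusted p = 0.341) and with DESeq2 (log2 1.72, adjusted p = 0.401). The ends of Ccne2, Rfc5, Mcm7, Gins2 and Fen1 also overlap another gene on the opposite strand.

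The fit had 1 residual degree of freedom, from the VQ BM pair, and assumed that the single WT BM and VQ LN libraries vary like that pair. With a preset biological coefficient of variation of 0.4 in edgeR, 12 of the 42 genes were called higher, against 2.85% of all tested genes. Thinning every cell to 1000 UMIs left 13 higher among the 28 genes still tested, against 11% of all, and taking all cells with no Jchain split gave 21 higher, against 14.5%. Pold1 and E2f1 were not alone in losing their calls. The call of Mcm7 was lost in 4 of 11 alternative settings. Those of Mcm3, Orc6, Cdt1, Pola2, Pold2, Rpa1 and Dnmt1 were each lost in 3 of 11, and that of Chaf1b in 3 of 10.

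WT BM cells under 5% Jchain had far more replication transcripts than the wild-type plasma cells. Their summed level was 3479 CPM (3173 to 3807), or 5.96-fold higher (4.87 to 7.35). These are 2 classes of cells of the same library, so no test applies. Among the 19 genes with at least 10 UMIs in both classes together, 13 were past 2-fold higher and 0 past 2-fold lower, against 17.3% and 15.8% of the 5507 genes with that many UMIs. Of the 19 genes, 17 reached 10 UMIs only with the cells under 5%, so this count describes genes that entered mostly through the class where they are high. The 23 genes left out summed to 675 CPM in the cells under 5% and 113 in those with at least 5%. The level was carried by few cells: 5 of the 57 cells held 282 of the 474 UMIs of these genes (59.5%). The top 10% of cells, rounded up, held 29.4% of these UMIs in VQ LN, 24.6% and 27.4% in VQ BM, 69.2% in WT BM cells under 5% and 33.6% in those with at least 5%. The 27 cells with at least 2 B cell and precursor markers held 428 of the 474 UMIs, a level of 4503 CPM, against 1117 in the other 30 cells. B cell and precursor markers summed to 5960 CPM in the WT BM cells under 5%, with 11 of 12 detected, and to 1069 in those with at least 5%. Neutrophil markers summed to 6840 in the cells under 5% and to 63.7 in those with at least 5%. Of the 57 cells under 5%, 1 had at least 2 neutrophil markers. Among the cells with at least 5%, the 27 with at least 2 B cell and precursor markers had 559 CPM of the 42 genes, and the other 79 had 596.

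Set against these WT BM cells under 5%, VQ BM cells had a total that was 1.19-fold higher (pooled VQ BM, counting interval 1.08 to 1.31). That value rests on few wild-type cells. Without cells holding markers of other types the total was 4177 and 4188 CPM in VQ BM and 1221 in the 25 WT BM cells left, 3.42-fold higher (2.51 to 4.80). Without the deepest 5% of each library's cells it was 4154 and 4145 in VQ BM and 1372 in the 49 WT BM cells left, 3.03-fold higher (2.52 to 3.66). The values by role below are over all cells of each class, with the effect of these filters after them. Origin licensing genes summed to 449 and 448 CPM in VQ BM and 139 in the WT BM cells under 5%, a fold of 3.22 (2.04 to 5.38). G1/S regulators summed to 207 and 266 CPM in VQ BM and 44.0 in the WT BM cells, a fold of 5.09 (2.32 to 14.0) that rests on 6 wild-type UMIs. Helicase genes gave 1495 and 1526 in VQ BM and 1527 in the WT BM cells, a fold of 0.985 (0.854 to 1.14). Chromatin and methylation genes went the other way, with 277 and 241 in VQ BM and 462 in the WT BM cells, 1.74-fold lower in VQ BM (1.31 to 2.27). Within that role Uhrf1 had 71.8 and 40.5 CPM in VQ BM and 198 in the WT BM cells. Rfc2 had 71.8 and 81.0 CPM in VQ BM and 183 in the WT BM cells. Gmnn, in contrast, had 143 and 203 in VQ BM and 29.4 in the WT BM cells, from 4 UMIs. The order by role changed with the cell filters. Without the deepest cells, chromatin and methylation genes turned to 281 and 245 CPM in VQ BM and 92.2 in the WT BM cells, 2.94-fold higher in VQ BM (1.47 to 6.85). Helicase genes became 2.46-fold higher (1.88 to 3.29) and licensing genes 6.48-fold higher (2.96 to 17.7). Without cells holding markers of other types, helicase genes were 2.48-fold higher (1.60 to 4.08), licensing genes 3.77-fold higher (1.46 to 13.9), and chromatin and G1/S genes had 0 UMIs in the WT BM cells left. The wild-type side has no replicate, and 5 cells carry most of it, so these intervals understate its error. The part of B cell precursors and other cell types in these differences was not tested.

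**Figure D3:**
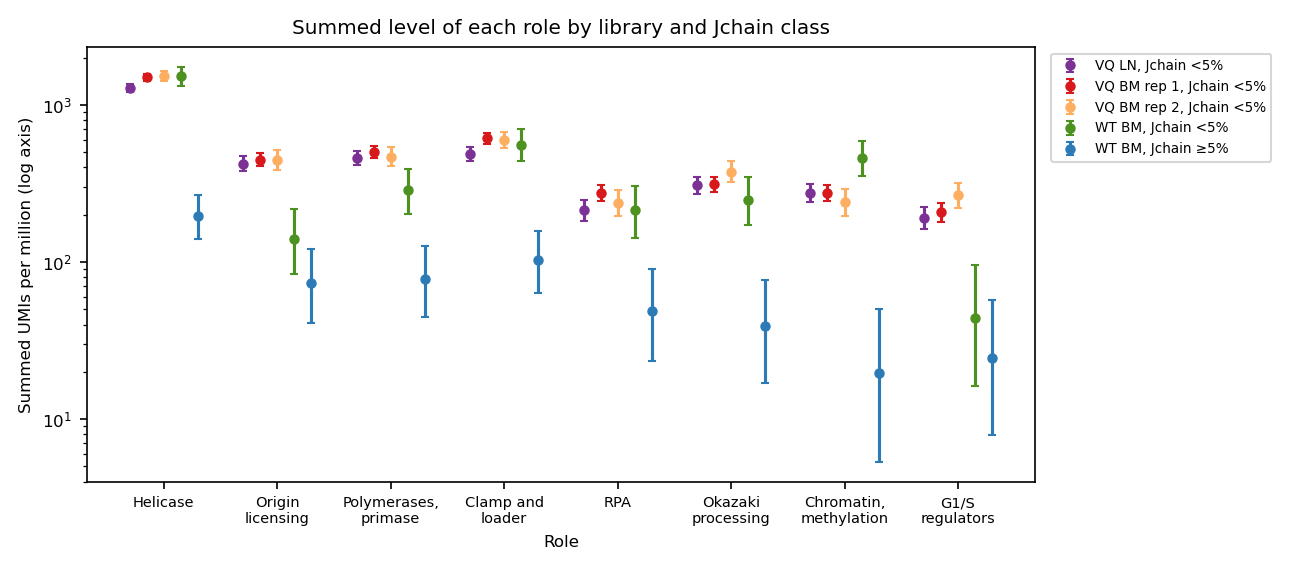
Summed CPM of the genes of each role (horizontal axis) in VQ LN, both VQ BM libraries, WT BM cells under 5% Jchain and WT BM cells with at least 5%, on a log axis with 95% Poisson counting intervals. WT BM cells with at least 5% Jchain are lowest in every role, and WT BM cells under 5% are highest for chromatin and methylation genes, at 462, beyond the intervals, and level with VQ BM for helicase genes, at 1527 beside 1495 and 1526.

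Replication transcripts were spread over most VQ cells and a minority of wild-type plasma cells. Cells were thinned at random to 1000 UMIs each, and those with fewer were left out, so that total depth, with Jchain counted, was equal. Jchain was a median of 19.7% of UMIs in wild-type plasma cells, which leaves fewer UMIs for other genes there. UMIs of at least 2 of the 42 genes were then found in 118 of 171 VQ LN cells (69.0%, exact Clopper-Pearson 95% interval 61.5 to 75.8). VQ BM replicate 1 had them in 165 of 204 cells (80.9%, 74.8 to 86.0) and replicate 2 in 112 of the cells deep enough (81.2%, 73.6 to 87.3). WT BM had 20 of 42 cells under 5% Jchain (47.6%, 32.0 to 63.6) and 12 of 87 cells with at least 5% (13.8%, 7.34 to 22.9). Without thinning the shares were 86.5% in VQ LN, 91.2% and 80.0% in VQ BM, and 52.6% and 33.0% in WT BM cells under 5% and at least 5%. Thinned to 1000 UMIs without Jchain they were 69.6% in VQ LN, 82.4% and 76.6% in VQ BM, and 40.5% and 15.9% in those WT BM classes. The order of the VQ classes over the wild-type plasma cells held each way. All 3 VQ shares lay above the 13.8% of wild-type plasma cells, a type that mostly does not divide, beyond the counting intervals. Free RNA in the droplets also gives UMIs, and a share from the wild-type library is not the background of the VQ libraries. VQ BM cells with at least 5% Jchain had UMIs of at least 2 genes in 4 of 13 cells of replicate 1 (30.8%, 9.09 to 61.4) and 2 of 2 of replicate 2. What part free RNA has in any of these shares was not tested.

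**Figure D4:**
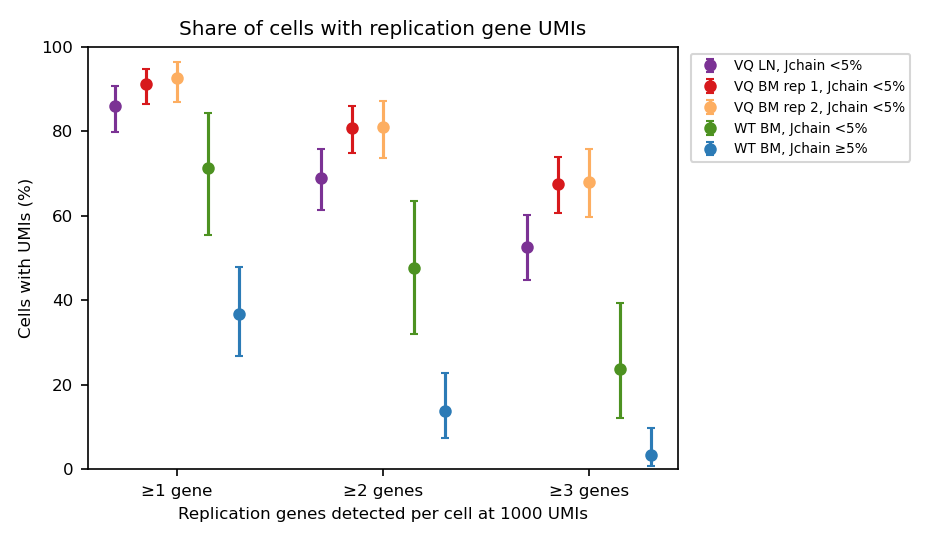
Percent of cells, each thinned to 1000 UMIs, with UMIs of at least 1, 2 or 3 of the 42 genes, with exact Clopper-Pearson 95% intervals, for VQ LN, both VQ BM libraries and both WT BM classes. At least 3 genes were found in 52.6% of VQ LN cells, 67.6% and 68.1% of VQ BM cells, and 23.8% and 3.45% of WT BM cells under 5% and at least 5% Jchain.

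At that depth the 42 genes gave a mean of 3.09 UMIs per cell in VQ LN, 4.03 and 3.74 in VQ BM, 2.31 in WT BM cells under 5% and 0.552 in those with at least 5%. The variance over the mean was 1.64 in VQ LN, 1.70 and 1.34 in VQ BM, 3.92 in WT BM cells under 5% and 1.30 in those with at least 5%. A value of 1 would be counting noise, and the WT BM cells under 5% stood out as the most uneven. By single gene, Mcm6 was found in the largest share of cells in each of these classes: 27.5% in VQ LN, 28.4% and 29.0% in VQ BM, 26.2% in WT BM cells under 5%, and 6.90% in those with at least 5%. The median gene was found in 4.68% of VQ LN cells, 8.09% and 7.25% of VQ BM cells, 2.38% of WT BM cells under 5% and 0.575% of those with at least 5%. Among the WT BM cells with at least 5%, 21 genes were in none of the 87 cells, which allows up to 3.45% of cells with a UMI of each at this depth and sets no limit on the cells that express it. Pcna was found in 11.7% of VQ LN cells, 20.1% and 12.3% of VQ BM cells, and 11.9% and 2.30% of WT BM cells under 5% and at least 5%.

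Many cells with replication transcripts also held transcripts of 15 mitosis genes such as Mki67, Cdk1 and Ccnb1. UMIs of at least 2 genes of both lists were found in 47 of 171 VQ LN cells (27.5%), in 81 (39.7%) and 43 (31.2%) VQ BM cells, and in 6 of 42 WT BM cells under 5% (14.3%). They were found in 0 of 87 WT BM cells with at least 5%, which allows up to 3.45% of cells with such UMIs at this depth and sets no limit on cells that express the genes. Cells with only the replication genes numbered 71 in VQ LN (41.5%), 84 and 69 in VQ BM (41.2% and 50%), 14 in WT BM under 5% and 12 in WT BM with at least 5%. Cells with only the mitosis genes were few: 6 in VQ LN, 7 and 5 in VQ BM, 1 and 0 in WT BM. These counts do not assign a phase to any cell.

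VQ LN was compared with VQ BM to ask whether the site of growth goes with a different level of these genes. Of the 42 genes 1 was lower in VQ LN and 0 were higher (edgeR adjusted p under 0.05), against 1.27% lower and 1.86% higher over all 8286 tested genes. At an unadjusted p under 0.05, edgeR gave 2 lower and 0 higher, and DESeq2 gave 0 either way. The gene that fell was Gins2, with 26.1 TMM-scaled CPM in VQ LN against 63.0 and 55.1 in VQ BM. Both VQ BM values were above VQ LN, and the log2 fold change was -1.20 (SE 0.36, edgeR adjusted p = 0.0289). Gins2 did not pass with Jchain limits of 2% and 10% (edgeR adjusted p = 0.0637 and 0.0732), with all cells (0.149) and with the preset coefficient of variation (adjusted p = 1). The 3′ end of Gins2 overlaps Gse1 on the opposite strand, and Gse1 did not pass (log2 0.56, edgeR adjusted p = 0.602). The median log2 fold change over the 42 genes was -0.14, against -0.02 over all tested genes. VQ LN lay below both VQ BM libraries for 19 genes, between them for 19 and above both for 4. Over all tested genes 35.4% lay below both and 35.5% above both.

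**Figure D5:**
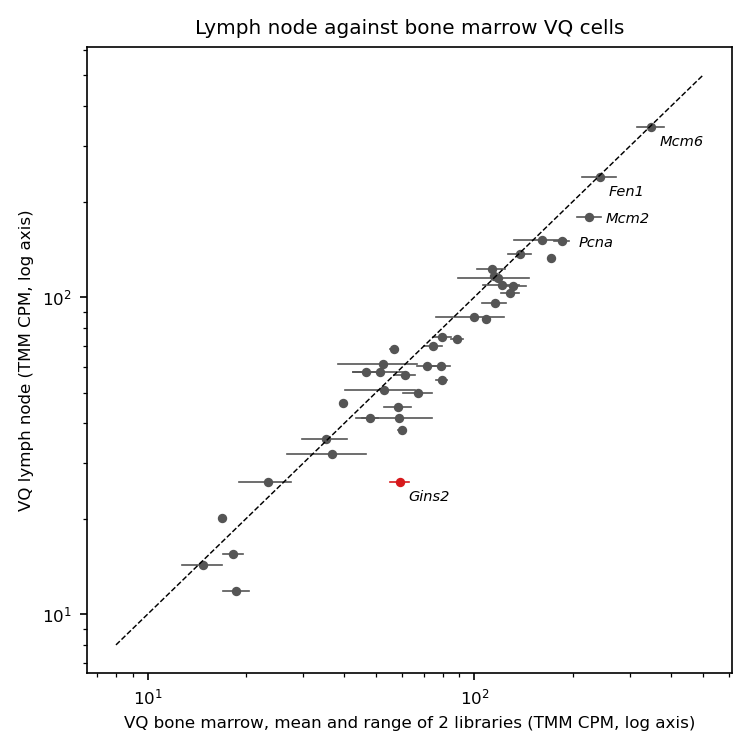
TMM-scaled CPM of each of the 42 genes in VQ LN (vertical) against VQ BM (horizontal, mean with a bar spanning both libraries), on log axes with the line of equality. Gins2, in red, is the gene called by edgeR, at 26.1 in VQ LN against 63.0 and 55.1 in VQ BM.

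The small offset was visible in sums. The total in VQ LN was 1.14-fold lower than in pooled VQ BM (counting interval 1.09 to 1.19), which is 3635 against 4126 and 4160 CPM. By role, the clamp and loader genes summed to 486 CPM in VQ LN against 614 and 599 in VQ BM, 1.25-fold lower (1.11 to 1.41). Helicase genes summed to 1278 in VQ LN against 1495 and 1526 in VQ BM, 1.18-fold lower (1.09 to 1.27), and RPA genes to 214 in VQ LN against 274 and 239 in VQ BM, 1.23-fold lower (1.03 to 1.48). Origin licensing genes gave 423 in VQ LN against 449 and 448 in VQ BM, with a ratio interval of 0.825 to 1.08. Chromatin and methylation genes gave 275 in VQ LN against 277 and 241 in VQ BM, so VQ LN lay between the VQ BM libraries. These intervals hold no spread between animals, with 1 VQ LN library. The share of cells with at least 2 genes, 69.0% in VQ LN, was likewise under 80.9% and 81.2% in VQ BM, and the VQ LN interval overlaps both of theirs. Averaged over 200 thinnings the shares were 72.6% in VQ LN and 80.6% and 80.9% in VQ BM. Single genes differed between the VQ BM libraries by a median of 1.18-fold and by up to 1.75-fold, for Chaf1b. Neutrophil markers, which summed to 14.9 CPM in VQ LN, were at 972 and 2702 in VQ BM, where 4 of 226 and 4 of 170 cells had at least 2 of them. Without cells holding markers of other cell types the total was 3660 in VQ LN against 4177 and 4188 in VQ BM.

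VQ LN was also set against wild-type plasma cells, without a test because each side is 1 library. It shares the wild-type cells with the VQ BM comparison and is not independent of it. Of the 42 genes, 35 were past 2-fold higher and 0 past 2-fold lower on log2 CPM with a prior count of 2, against 26% and 16.6% of the 8352 genes with at least 10 UMIs in both classes together. Only 2 of the 42 had 10 UMIs in the wild-type cells, and the other 40 entered through their VQ LN counts, so the count describes genes admitted where they are high. The median log2 difference of the 42 genes was 2.26, against 0.14 over those genes.

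Other genes of the pathway were taken from lists outside the 42. Of 71 such genes 67 were tested, and 35 were higher in VQ BM, 3 were lower and 29 did not pass by edgeR, against 17.1% higher and 12.8% lower over all tested genes. The nucleotide supply list had 5 of 7 higher. Among them Rrm2, a ribonucleotide reductase subunit, had 297 TMM-scaled CPM in VQ LN, 462 and 326 in VQ BM, and 17.6 in WT BM (log2 4.50, edgeR adjusted p = 1.06e-20). Of E2F, DP and RB family genes 8 of 11 were higher, among them the E2F partner Tfdp1 at 166 TMM-scaled CPM in VQ LN, 139 and 155 in VQ BM, and 0 UMIs in WT BM (at least 8.16-fold higher). Rbl2, an RB relative that represses E2F targets in resting cells, fell, with 20.2 TMM-scaled CPM in VQ LN, 36.4 and 21.2 in VQ BM, and 82.3 in WT BM (log2 -1.39, edgeR adjusted p = 0.0227). Checkpoint and S phase repair genes had 6 of 10 higher. Fork and clamp genes had 8 of 16 higher, with Top2a at 273 TMM-scaled CPM in VQ LN, 237 and 227 in VQ BM, and 5.88 in WT BM. Pole4 and Top1 of that list fell, with log2 fold changes of -1.47 and -0.56 (edgeR adjusted p = 2.20e-05 and 0.0458). Chromatin genes had 5 of 10 higher, Hells among them (log2 3.76). Licensing and firing genes had 3 of 13 higher, namely Dbf4, Topbp1 and Recql4, a share near that over all tested genes, while Orc2 to Orc5, Cdc7 and 5 others did not pass. All 15 mitosis genes were higher, with Mki67 at a log2 fold change of 1.13 and Ccna2 at least 17.3-fold. Between VQ LN and VQ BM, Usp1, a deubiquitinase that acts on PCNA, was the gene that passed among the 67 tested genes of these lists, and none of the 15 mitosis genes did. That is a share near the 1.86% higher over all tested genes. Usp1 had 135 TMM-scaled CPM in VQ LN against 79.0 and 76.3 in VQ BM (log2 0.79, edgeR adjusted p = 0.0169).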

How the data were processed

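The values are raw UMI counts per gene and cell, as the authors deposited them, for cells past their knee filter on barcodes. Libraries were made on the Bio-Rad ddSEQ with Illumina's SureCell 3′ kit, per the labels' protocols. Per the submitters' processing notes the build is mm10. The aligner, the counting tool and the use of strand are not given in the sources used here. No doublet caller was run on these 781 cells.

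The 42 genes, the other lists and the Jchain limit were chosen with earlier results of these data known. Cells were split at 5% Jchain UMIs. UMIs were summed per library and class and compared with edgeR 4.0.16 (R 4.3.3, TMM, filterByExpr, quasi-likelihood test, 3 group means, Benjamini-Hochberg adjustment), with DESeq2 1.42.0 as an alternative. TMM factors were 1.05 for VQ LN, 1.08 and 1.06 for VQ BM and 0.834 for WT BM. The common biological coefficient of variation was 0.0928. The quasi-likelihood test gives no SE, so each SE printed is the absolute log2 fold change divided by the square root of its F statistic. Fold intervals are exact conditional binomial, shares are Clopper-Pearson, and a 0 is set against 3 counts. All of these cover counting error and nothing else. The VQ BM pair differed beyond sampling noise (a chi-square of 1.57 per degree of freedom over 9021 genes), so it was not taken for repeat files of 1 library, though this does not show separate animals. Full statistics are given for the 3 genes of each role with most UMIs and for genes whose call goes against most of their role. Genes added to these, such as Uhrf1's alternative or Gmnn beside the WT BM cells under 5%, were picked after their values were seen. Gene coordinates and overlaps come from GENCODE vM21. Alternatives were another test, scaling, filter, Jchain limit, cell filter, thinning and each VQ BM library left out.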

Additional observations from a re-analysis of the deposited data

Results flagged for a closer look

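VQ BM libraries also held 19 and 18 cells with at least 5% Jchain, which no comparison above uses. The 42 genes summed to 1097 CPM there in replicate 1 (24 UMIs, counting interval 703 to 1632) and to 1494 in replicate 2 (19 UMIs, 899 to 2332). Both values are above the 583 of wild-type plasma cells (483 to 698) and below the 4126 and 4160 of VQ BM cells under 5%. Pooled VQ BM cells under 5% were 3.33-fold above them (2.47 to 4.6). These cells are shallow, with median UMIs of 1064 and 699.5. Of those deep enough, 4 of 13 in replicate 1 and 2 of 2 in replicate 2 had at least 2 of the genes at 1000 UMIs. Mzb1 was at 2057 and 2909 CPM in them, 45.0 and 51.8 in VQ BM cells under 5%, and 4760 in wild-type plasma cells. In the same order Fkbp11 was at 91.4 and 157, 632 and 758, and 201. In both replicates Slamf7 and Eaf2 lay further from wild-type plasma cells than the cells under 5% did. These markers were picked after their values were seen. What type these cells are, and whether free RNA or mixed droplets contribute, was not tested.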

How the results depend on the processing

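Between VQ BM and WT BM, 34 genes higher became 8 with DESeq2, 12 with a preset coefficient of variation of 0.4, 21 with all cells and 13 after thinning to 1000 UMIs, and lay between 32 and 36 under the other alternatives that give a test. The count of lower genes was 0 throughout. Only Mcm2, Mcm10, Cdc6 and Rfc4 passed in each of the alternatives that tested them. These were 11 alternatives for Mcm2 and Rfc4 and 9 for Mcm10 and Cdc6. The median log2 fold change of 3.27 became 3.62 with library totals as scaling, 1.27 with all cells and 2.91 after thinning. Leaving out 1 VQ BM library gave 3.11 to 3.28, as values without a test. Library totals also moved the split of all genes to 2141 higher and 709 lower, from 1420 and 1058, and their median from 0.20 to 0.56. With all cells Uhrf1 reversed to -0.59. Why all-cell and thinned sums differ is partly their construction, with other cells added or fewer UMIs counted.

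Between VQ LN and VQ BM, the 1 lower gene became 0 with DESeq2, the preset coefficient of variation, Jchain limits of 2% and 10%, all cells and thinning. The median became -0.39 after thinning and -0.22 to -0.14 with 1 VQ BM library left out.

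The share of cells with at least 2 genes, in the order VQ LN, VQ BM 1, VQ BM 2, WT BM under 5% and WT BM at least 5%, was 44.3%, 56.1%, 52.3%, 30.4% and 6% at 500 UMIs. For at least 1 gene it was 86.0%, 91.2%, 92.8%, 71.4% and 36.8%, and for at least 3 genes 52.6%, 67.6%, 68.1%, 23.8% and 3.45%. Unthinned it was 86.5% in VQ LN, 91.2% in VQ BM 1 and 33.0% in WT BM with at least 5%. In WT BM under 5% it was 25.0% without cells of other types. The summed level in WT BM under 5% was 3067 with a 10% limit, 1221 without cells of other types and 1372 without the 5% deepest cells. It was 732 in WT BM with at least 5% when Jchain was left out of the total, and 1699 in the VQ BM 1 cells with Jchain at a 2% limit.

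No paired analysis was possible because WT BM and VQ LN are 1 library each and the labels do not link libraries by animal. The wild-type plasma cells held 119 UMIs of the 42 genes, which limits every single-gene fold.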
